A study of Drosophila melanogaster with 2 samples.

Results

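Peaks of the eGFP-tagged zinc finger protein CG5204, named kmg, were examined where the summit lay just inside a gene, 1 to 500 bp downstream of the nearest protein-coding transcription start site (TSS). The rule took 257 of 2868 peaks, which is 8.96% (95% Wilson interval 7.97 to 10.1). These 257 peaks were 16.6% of the 1550 peaks within 500 bp of such a TSS, beside 1289 upstream of it and 4 at its first base. Among the peaks that had passed the authors' threshold on reproducibility, position relative to annotated start sites was the only further criterion.

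Chromatin immunoprecipitation with sequencing was performed on whole adult male Drosophila melanogaster from a transgenic line in which the C terminus of CG5204 is joined to GFP, which the antibody recognises. The age of the males is given as unknown, and the series has 1 group of 2 biological replicates, sheared by sonication to 200 to 800 bp. Peaks passed the irreproducible discovery rate (IDR) procedure, which keeps regions that rank alike in both replicates, and a summit is the base of highest signal in a region. A control experiment is named in the labels and was not analysed here, and neither untagged flies nor a second condition was available, so shares are set beside those of other peaks or of all comparable positions and no test between conditions was possible. Whole animals were used, so the tissue behind a peak cannot be told apart from others.

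Kmg is known from the Drosophila testis, where it and the remodelling ATPase Mi-2 prevent genes normally used elsewhere from being switched on in spermatocytes through cryptic start sites. Many transcription factors are found upstream of the TSS or on it. The first bases of a gene hold the core promoter's downstream elements, the place where RNA polymerase pauses, the 5′ untranslated region (5′ UTR) and, further in, the first splice donor and the start of the first intron, which in flies often carries enhancers and further promoters.

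The sequences below show the promoter words found within 100 bp of strong downstream summits. They come from the 10 strongest peaks that had such a word and could be shown, so CG8320, pre-mod(mdg4)-E, CG18622, Fer2LCH and yip2, which were stronger than some of them, are passed over. Each run is 30 bases, given 5′ to 3′ on the strand of the gene with the nearest TSS, and was read from the Release 6 reference genome. Capitals mark the match nearest the summit to one of the promoter words searched. TATAAA (reverse complement TTTATA) is the TATA box, CGATA (reverse complement TATCG) is the core word of the insulator protein BEAF-32, and CAGCTG is the E-box known as Ohler motif 5.
Chro: gttagtttaaagcTATCGacaggcaataca
CG11309: actatatcttcgTTTATAtgtcgacatttc
CG8360: ccctgcagcgaaCAGCTGttgcagcagttg
mRpL23: agtgtggaatatTTTATAgttacagcgtaa
CG10413: tataaacttattTATAAAgtctggggttat
CG8892: aaaatttagattgCGATAcatgttttggtt
CG9399: gctgtagtacccCAGCTGttgcggtgctaa
ph-p: ttttcattttactTATCGtaacattgttta
CG4497: caggccaaatacCAGCTGattggagaaaaa
sau: tatcggacaaacTATCGgttcggattcata

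In dm6 coordinates, the run at Chro is chr3L:22878880-22878909 on the minus strand, that at CG11309 is chr3L:21304638-21304667 (minus), that at mRpL23 is chr3L:2373593-2373622 (minus) and that at CG8360 is chr2L:8213101-8213130 (plus). The run at CG10413 is chr2L:18605147-18605176 (minus), that at CG8892 is chr2L:4981506-4981535 (minus) and that at CG9399 is chr3R:9574166-9574195 (minus). The run at ph-p is chrX:2137879-2137908 (minus), that at CG4497 is chr2L:7194586-7194615 (minus) and that at sau is chr2L:2226316-2226345 (plus). The word nearest to its summit was the E-box at CG9399, at 1 bp, followed by the TATA box words at CG10413 and mRpL23, at 9 and 10 bp. The words at Chro, CG8892, CG4497 and ph-p were 12, 14, 26 and 48 bp away. Those at CG11309, sau and CG8360 were 73, 84 and 94 bp away. The runs at these 3 genes, at CG4497 and at ph-p do not reach the summit. The words at CG4497 and sau lay 12 bp upstream of the TSS, although both summits lay downstream of it.

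Summits crowded towards the TSS. The median summit was 101 bp downstream, with quartiles of 38 and 261 bp. A count of 74 of the 257 lay within 50 bp, 128 (49.8%, 43.7 to 55.9) within 100 bp and 180 (70.0%, 64.2 to 75.3) within 200 bp. The number per 50 bp fell from 74 and 54 in the nearest steps to 9 at 201 to 250 bp and then stayed between 9 and 16 out to 500 bp. Upstream of the TSS the order was different: 144 summits lay within 50 bp and the fullest step, with 254, was at 101 to 150 bp. Of the 1289 upstream summits, 28.3% were within 100 bp.

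**Figure D1:**
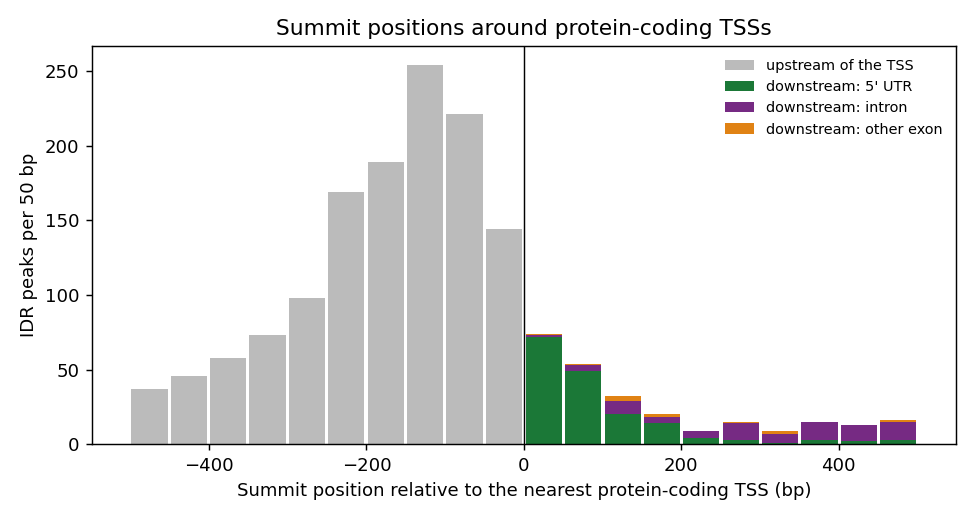
IDR peaks per 50 bp of distance (vertical axis, count) by position of the summit relative to the nearest protein-coding TSS (horizontal axis, bp), with upstream summits in grey and downstream summits coloured by annotation. Downstream counts fall from 74 in the first 50 bp to 9 at 201 to 250 bp, and introns take most of the counts beyond 200 bp.

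At the inner limit of the rule, Zasp66, which encodes a protein of the muscle Z-disc, Hgsnat and vig2 had summits 1 bp downstream with signals of 46.4, 63.4 and 57.2. The replicates put the summit 62 and 13 bp downstream at Zasp66 and 43 and 52 bp upstream at Hgsnat. At vig2, replicate 2 had no summit within 100 bp. Just outside the inner limit, dao, viaf and CG31999 had summits at the TSS itself with signals of 56.8, 43.2 and 47.2. At the outer limit, CG31612, RhoGAP18B and CG7987 were inside at 492, 495 and 496 bp with signals of 265, 44.9 and 58.0. CG8128, CG31523 and CG12177 were outside at 508, 512 and 513 bp with signals of 88.3, 124 and 52.1.

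Most of the downstream summits lay in untranslated sequence and few lay in coding sequence. The 5′ UTR held 171 of 257 (66.5%, 60.6 to 72.0), at a median of 62 bp from the TSS, and an intron held 75 (29.2%, 24.0 to 35.0), at a median of 338 bp. A coding exon held 9 (3.50%, 1.85 to 6.52). The other 2 were in a 3′ UTR and in a non-coding exon, at UQCR-11 and grh. Where transcripts differed, exons were given precedence over introns.

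Distance from the TSS sets much of this, so the shares were also set beside all positions that the rule could have taken, sampled every 10 bp. Of positions 1 to 100 bp downstream, 79.2% were in a 5′ UTR, against 94.5% (89.1 to 97.3) of the 128 summits there. At 101 to 200 bp, the 5′ UTR held 40.3% of positions and 65.4% (51.8 to 76.8) of 52 summits. At 201 to 500 bp the 5′ UTR shares were close, at 17.1% of positions and 20.8% (13.2 to 31.1) of 77 summits, and introns held 28.2% of positions and 74.0% (63.3 to 82.5) of summits. Coding exons held 51.7% of the positions at 201 to 500 bp and 2.60% (0.715 to 8.98) of the summits. With the positions weighted to the distances of the summits, coding exons held 32.3% of positions and 3.50% of summits. The lower share of coding sequence was therefore seen at each distance, and the place of the coding exons was taken by the 5′ UTR near the TSS and by introns further in. These positions are drawn from all protein-coding genes, whatever their activity in adult males.

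**Figure D2:**
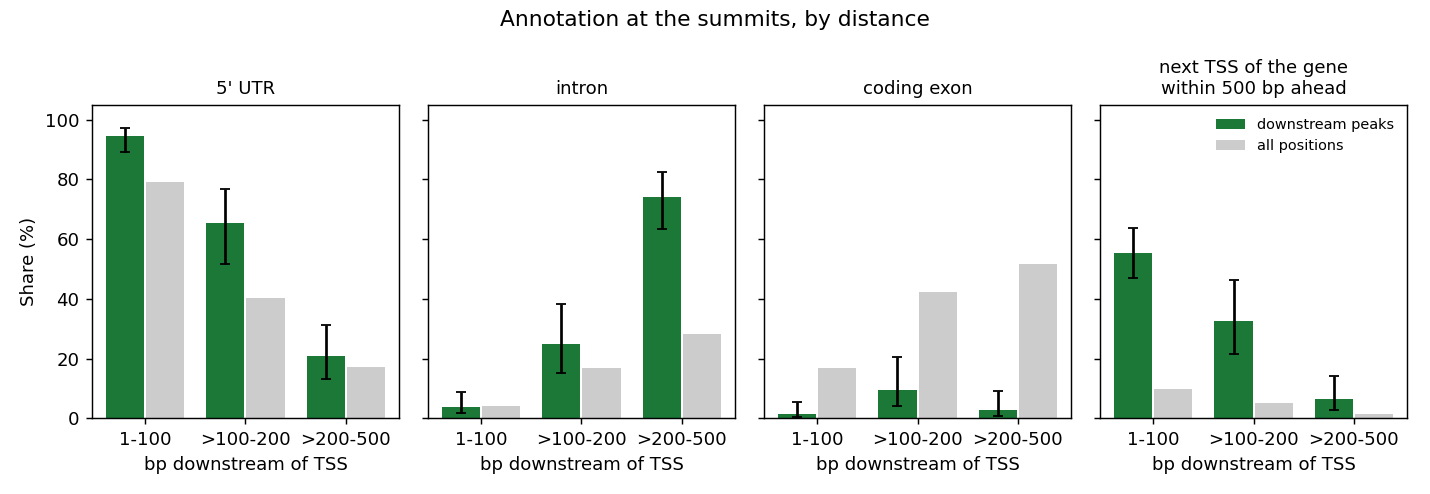
Share of downstream summits (green, with 95% Wilson intervals) and of all positions the rule could take (grey) in 4 classes (vertical axes, %), by distance downstream of the TSS (horizontal axes, bp). Summits lie less often in coding exons than positions do at each distance, and the next TSS of the same gene was within 500 bp ahead of 55.5% of summits at 1 to 100 bp against 9.79% of positions.

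Of the 75 intronic summits, 74 lay in the first intron of a transcript that starts at the nearest TSS. The median summit was 139 bp past the end of the exon, with quartiles of 70 and 208.5 bp and a range from 3 to 439 bp. The introns themselves were 102 to 19947 bp long, with a median of 1026 bp. The window of 500 bp limits how far past the donor a summit can lie, and the first exons before these introns had a median length of 158 bp. The donor junctions of 4 strong first-intron peaks, chosen after their values were seen, are given with the GT that opens the intron in capitals. CG8320, second in signal among first-intron peaks, is not among them.
CG11309: taagtttgttGTaagttagttgtcatcatt
Fer2LCH: aggatacatgGTgggaaaacttacaaatta
yip2: gcaaccaaagGTaattatgtgaatccttta
aru: gtgctgctagGTgagaggatgatatcgaaa

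These junctions are at chr3L:21304589-21304618 (minus strand) for CG11309, chr3R:30388368-30388397 (plus) for Fer2LCH, chr2L:9915357-9915386 (plus) for yip2 and chr2L:867794-867823 (minus) for aru. The summit lay 30 bp past the exon in the 517 bp intron of CG11309 and 31 bp past it in the 258 bp intron of yip2. It lay 147 bp past the exon at Fer2LCH, whose intron is 202 bp, and 292 bp past it at aru, whose intron is 3019 bp. The summits therefore ranged from beside the donor to well inside the intron.

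The 9 summits in coding exons had lower signals than the others. Their median signal was 56.7, against 71.2 in the 5′ UTR and 73.1 in introns. The strongest was at CG3552, with a signal of 89.8 (replicate 1, 48.2 and replicate 2, 53.6). Next was ATPsynbeta, the beta subunit of the mitochondrial ATP synthase, with 70.6 (43.4 and 22.7). P5cr-2, a pyrroline-5-carboxylate reductase, followed with 61.7 (38 in replicate 1 and no summit within 100 bp in replicate 2). In all, 4 of the 9 (44.4%, 18.9 to 73.3) were listed in both replicates. With 9 peaks the intervals are wide.

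Genes with several start sites were common. Another TSS of the same gene, over 50 bp away, was annotated for 202 of 257 peaks (78.6%, 73.2 to 83.2), against 42.1% of the positions weighted to the same distances. By genes, 192 of 247 (77.7%, 72.1 to 82.5) had such a TSS, beside 49.1% of the 1184 genes of upstream peaks and 25.1% of all 13968 protein-coding genes. A gene with more start sites offers more places for a downstream summit, and the weighting by positions takes account of that. The nearest TSS was the most 5′ of its gene for 156 peaks (60.7%, 54.6 to 66.5). This must hold at genes with no other annotated TSS, which are counted here, and no share of positions was set beside it.

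The next TSS of the gene often lay just ahead of the summit, so that a peak downstream of one TSS was upstream of another. This was so within 500 bp for 93 of 257 peaks (36.2%, 30.6 to 42.2), against 6.32% of the positions weighted to the same distances. In these 93 the median summit was 64 bp past the first TSS and 170 bp before the next (quartiles 136 and 267 bp). The median spacing of the pair was 245 bp. CG10413 is an example, with a signal of 578 and values of 272 and 305 in replicates 1 and 2: its summit lay 97 bp past one TSS and 130 bp before the next. At CG9399 (signal 464, replicates 250 and 205) the distances were 32 and 193 bp, and at sau, which encodes the Golgi protein GOLPH3, they were 72 and 107 bp (signal 333, replicates 177 and 152).

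A second gene was often close by. For 67 peaks (26.1%, 21.1 to 31.8) the summit was also within 500 bp upstream of the TSS of another protein-coding gene, and for 66 of them such a gene was on the opposite strand, so that both genes pointed away from each other. The share among weighted positions was 15.5%. The difference lay in the first 100 bp, with 42.2% (34.0 to 50.8) of summits against 20.7% of positions. Beyond 200 bp the shares were 6.49% and 6.21%. In the 65 pairs where every such gene was on the opposite strand, the median distance between both start sites was 105 bp (quartiles 57 and 246, range 6 to 399 bp). In 48 peaks a second gene and a further TSS of the same gene were both present, and 145 (56.4%, 50.3 to 62.3) had neither.

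The strongest downstream peaks were mostly of these kinds. Among the 25 of highest signal, 13 lay upstream of a second protein-coding gene, 14 had the gene's next TSS within 500 bp ahead, and 17 (68.0%, 48.4 to 82.8) had one or the other. All 25 were listed in both replicates, and 16 were in a 5′ UTR and 9 in an intron. Among the 64 strongest downstream peaks 37 had one or the other, against 16 of the 64 weakest.

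Chro had the strongest downstream peak, at chr3L:22878735-22879082 with the summit at 22878906, 78 bp inside the gene. Chro encodes Chromator, a chromodomain protein of the chromosome interbands and the spindle, and the summit was 183 bp upstream of Ssl1, which encodes a subunit of the general transcription factor TFIIH. The signal was 692 in the IDR list, 344 in replicate 1 and 346 in replicate 2. Both replicate summits lay downstream too, at 78 and 76 bp. Chro was at rank 23 of the 2868 peaks, so 22 peaks elsewhere were stronger.

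CG11309 was next with a signal of 659 (299 and 360 in replicates 1 and 2), and its summit 79 bp inside the gene was 118 bp upstream of CG7632. CG8360 had 657 (333 and 326), 62 bp inside the gene and 119 bp upstream of CG8372. The mitochondrial ribosomal protein gene mRpL23 had 631 (319 and 310), 81 bp inside the gene and 131 bp upstream of CG9004. In each of the 4 strongest the summit lay in the first bases of one gene and upstream of another. The first gene's own next TSS also lay ahead in each, nearer than the second gene. It was 138 bp from the summit at Chro, 112 bp at CG11309 and 96 bp at both CG8360 and mRpL23. CG8320 (495, replicates 237 and 252) lay 134 bp upstream of Pex11ab, and CG8892 (475, replicates 254 and 223) lay 80 bp upstream of CG34126. pre-mod(mdg4)-E (443, replicates 205 and 239) is part of the mod(mdg4) locus, whose mRNAs are made by trans-splicing from several annotated units. Its nearest neighbouring unit started 136 bp from the summit.

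The ferritin pair was among the intronic cases. Fer2LCH encodes the light chain of ferritin, the secreted iron store of insects, and Fer1HCH on the other side encodes the heavy chain. The summit lay 248 bp inside Fer2LCH and 346 bp upstream of Fer1HCH, with a signal of 413, of which replicate 1 had 186 and replicate 2 had 222. The replicate summits were 247 and 301 bp inside Fer2LCH. Herp, an endoplasmic reticulum stress gene, had 282 (137 and 155) and lay 137 bp upstream of r2d2, whose product loads small interfering RNA with Dicer-2. Vti1b, a SNARE gene, had 240 (147 and 94.4) and lay 319 bp upstream of Vha100-2, which encodes a subunit of the vacuolar proton pump.

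Strong peaks without a further TSS within 500 bp lay deeper in the gene. ph-p, which encodes Polyhomeotic, a subunit of Polycomb repressive complex 1, had a signal of 420 (208 and 221 in replicates 1 and 2) at 430 bp inside its 5′ UTR. aru, an Eps8-family gene, had 329 (164 and 168) at 491 bp, and Eip63F-1, an ecdysone-induced calcium-binding protein, had 328 (127 and 194) at 471 bp. CG6287 had 281 (148 and 130) at 391 bp and CG31612 had 265 (137 and 128) at 492 bp. Cftr, the fly counterpart of the chloride channel gene, had 281 (138 and 144) at 220 bp, and yip2 had 385 (182 and 199) at 144 bp. Of the 25 strongest, 8 were over 200 bp downstream. zf30C, a zinc finger gene, was an exception to the depth, with 248 (99.8 and 149) at 32 bp.

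**Figure D3:**
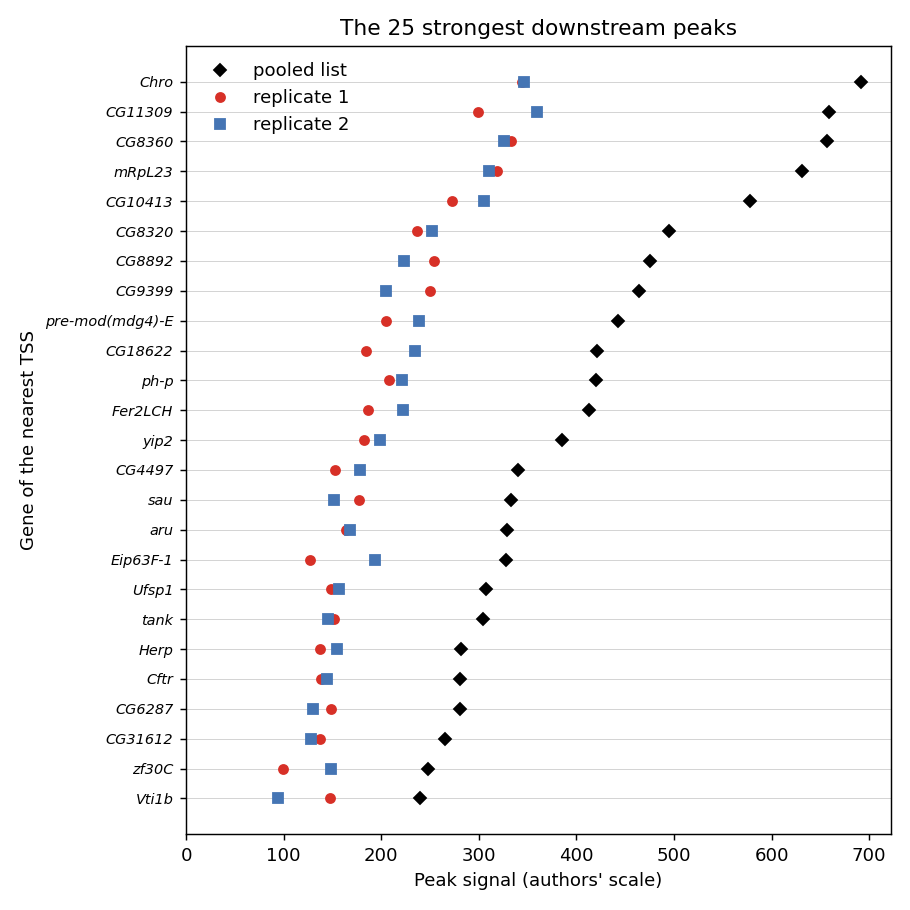
Signal (horizontal axis, the authors' scale) of the 25 strongest downstream peaks by the gene of the nearest TSS (vertical axis) in the IDR list (diamonds), replicate 1 (circles) and replicate 2 (squares). Replicate values are close at Chro (344 and 346) and further apart at Eip63F-1 (127 and 194) and Vti1b (147 and 94.4), and the IDR list's value is higher than either.

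Peaks beside a second gene had the highest median signal. The median signal was 98.3 (quartiles 63.1 and 199) for the 67 peaks upstream of a second protein-coding gene. It was 81.8 (61.8 and 108) for the 45 others with the gene's next TSS ahead, and 59.4 (48.4 and 99.8) for the 140 with no further TSS within 500 bp. Of the 67 peaks, 48 also had the gene's next TSS within 500 bp ahead, so the classes do not set these features apart. The lowest median, 54.7, was that of the 5 peaks upstream of a non-coding gene only. The order of the first 3 classes was the same in each replicate: the medians were 61.5, 42.4 and 30.7 in replicate 1 and 55.5, 42.0 and 36.8 in replicate 2. The ranges overlapped widely, since the class without a further TSS reached 420. Its peaks were also further from the TSS, at a median of 188 bp against 58 bp for the peaks beside a second gene, and had more GC in the sequence around the summit, at a mean of 40.0% against 35.5%. The part of distance and base composition in the order of signals was not tested.

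**Figure D4:**
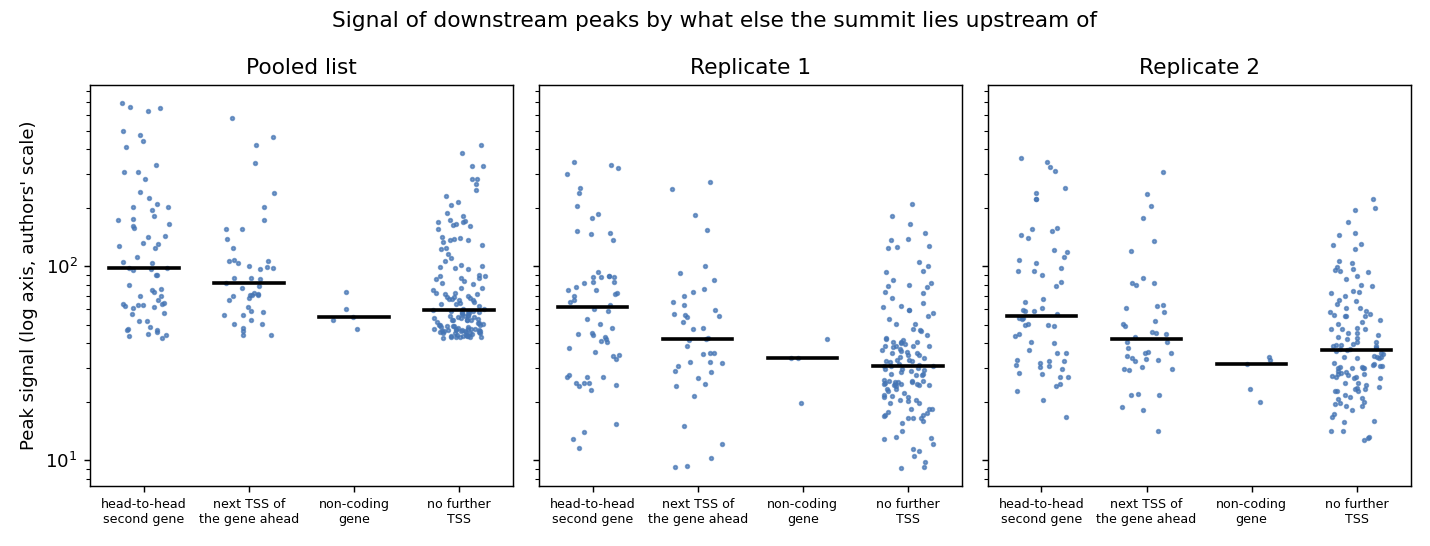
Signal of each downstream peak (points, log axis, the authors' scale) and the median (bars) in the IDR list and in each replicate, by what else the summit lay upstream of. Medians are highest upstream of a second protein-coding gene (98.3 in the IDR list) and lowest for a non-coding gene or no further TSS (54.7 and 59.4). The class labelled head-to-head holds all 67 peaks upstream of a second gene. In 65 of them every such gene is on the opposite strand. Most peaks in the class beside a second gene also have the gene's next TSS ahead.

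The downstream peaks as a whole had signals near those of all peaks and below those of upstream peaks. Their median signal of 70.6 (quartiles 52.4 and 130) compares with 73.0 over all peaks, 86.3 for the 1289 upstream peaks and 71.0 for the 434 intronic peaks at 501 to 2000 bp from a TSS. The 286 strongest of all peaks (9.97%) held 28 of them (10.9%). A false discovery rate of at most 5% in the pooled list was met by 155 (60.3%, 54.2 to 66.1), against 62.4% of all peaks and 70.4% of upstream peaks. That share was 79.1% beside a second gene and 47.9% with no further TSS. Across the 257 peaks, which share 1 pair of libraries, the rank correlation of distance with signal was -0.099.

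Both replicates listed 215 of the 257 (83.7%, 78.6 to 87.7), with a region whose summit was within 100 bp of the IDR summit in each. The share over all peaks was 88.0%. Replicate 1 alone listed 24, replicate 2 alone 15, and 3 (AOX3, CG9921 and the weaker Clamp peak) matched in neither. Signals of the replicates differed over 2-fold for 33 of the 215 (15.3%), against 11.6% of all peaks in both. These unequal peaks were mostly those with no further TSS, where 24 of 113 (21.2%) differed so, against 4 of 58 (6.90%) beside a second gene. The median ratio of replicate 1 to replicate 2 was 0.887 (quartiles 0.688 and 1.18), against 0.984 for upstream peaks. The scale of the signal in each list is not given, so only the difference between these ratios can be read. It was lowest, at 0.779, with no further TSS. The rank correlation between the replicates was 0.751 over the 215 peaks. It was 0.91 over the 58 beside a second gene and 0.617 over the 113 with no further TSS. These values describe peaks that share 1 pair of libraries and were kept for ranking alike in both replicates. The class with no further TSS also had the lower signals, and the part of signal in these differences between classes was not tested.

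The 5 peaks with the most unequal signals, by the ratio as deposited, were all higher in replicate 2, in which direction the median ratio also lay. elav, the neuronal RNA-binding protein gene, had 9.76 in replicate 1 and 63.7 in replicate 2, and mino, a glycerol-3-phosphate acyltransferase gene, had 9.37 and 48.9. Neos had 11.6 and 44.5, wun, a lipid phosphate phosphatase gene, had 9.17 and 36.8, and Mgstl, a microsomal glutathione transferase gene, had 9.20 and 36.7. Their signals in the IDR list were 52.6 to 89.5, so none was among the strongest. MFS14, singled out after its values were seen, was unequal in the other direction, with 44.3 in replicate 1 and 13.2 in replicate 2 at its weaker peak.

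The side of the TSS held between replicates except close to it. Of the 215 peaks in both, 192 (89.3%, 84.5 to 92.8) had a downstream summit in both replicates, 20 were on different sides and 3 were at or upstream of the TSS in both. Of the 64 at 1 to 50 bp, 42 (65.6%, 53.4 to 76.1) were downstream in both. Over 50 bp, 150 of 151 were, which for those over 100 bp is set by the match within 100 bp. The median gap between the replicates' summits was 25 bp, and 51.5 bp at the upper quartile. The ribosomal protein gene RpL30 shows the limit: its IDR summit was 22 bp downstream, and the replicates put it 7 bp downstream and 44 bp upstream. At Ufsp1, a protease of the UFM1 modifier and one of the 25 strongest (307, replicates 148 and 157), replicate 1 put it 10 bp upstream and replicate 2 put it 18 bp downstream.

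**Figure D5:**
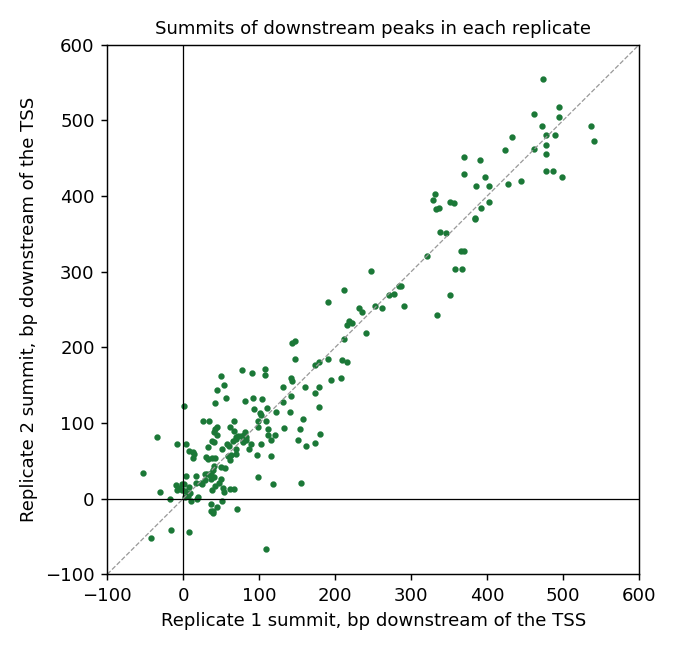
Distance of the summit downstream of the TSS (bp) in replicate 1 (horizontal axis) and replicate 2 (vertical axis) for the 215 downstream peaks listed in both, with equal distances dashed. Of these, 192 lie above 0 in both, and the 20 on different sides lie close to the TSS.

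Each replicate taken alone gave a like share of downstream summits. Among the 2868 strongest regions of replicate 1, 280 (9.76%, 8.73 to 10.9) were downstream, with a median signal of 41.1 against 47.1 upstream. In replicate 2 there were 272 (9.48%, 8.47 to 10.6), with 38 against 47.6. In each replicate the downstream regions were the weaker of the 2 classes.

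The 257 peaks belonged to 247 of 13968 protein-coding genes (1.77%), with 1 TSS shared by CG8043 and CG11755. There were 9 genes with 2 such peaks and 1 with 3. The gene with 3 was Ubi-p63E, which encodes polyubiquitin: its strongest peak, 122 bp inside, had a signal of 138 (65.0 and 82.4 in replicates 1 and 2), and the others had 47.0 (12.9 and 24.2) and 45.5 (27.5 and 12.7). Treh, the trehalase gene, had 87.2 (32.1 and 45.2) at 110 bp and 85.6 (34.9 and 52.5) at 279 bp. HmgZ, a high mobility group protein gene, had 83.4 (41.7 and 48.0) at 10 bp of one TSS and 46.4 (13.0 and 31.7) at 250 bp of another. Clamp, whose zinc finger protein binds GA repeats and serves dosage compensation on the male X, had 64.5 (27.8 and 37.6) at 370 bp and 42.7 at 171 bp. The weaker Clamp peak had no summit within 100 bp in either replicate. The other genes with a pair were Hsc70-4, MFS14, Mgstl, bowl, bru2 and ph-p. Such pairs share a gene and some share a TSS, so they are not independent.

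Housekeeping gene groups were present at low counts. Among the 92 cytoplasmic ribosomal protein genes, 5 (5.43%, 2.34 to 12.1) had a downstream peak, against 1.77% of all protein-coding genes, and 24 (26.1%) had an upstream one, against 8.48% of all protein-coding genes. The 3 strongest were RpS23 with a signal of 134 (57.2 and 72.8 in replicates 1 and 2), RpL30 with 82.0 (34.1 and 50.4) and RpL5 with 67.2 (38.9 and 29.9). Their summits were 5, 22 and 13 bp inside the gene, within the reach of the replicate difference. Translation factors gave 3 of 54 genes (5.56%, 1.91 to 15.1): eEF2, the ribosome translocase, with 141 (78.5 and 55.4), eIF4A, the RNA helicase of initiation, with 87.4 (56.1 and 35.7) and eIF2Bgamma with 49.2 (30.7 and 17.4).

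The oxidative phosphorylation subunits gave 4 of 93 genes (4.30%, 1.69 to 10.5), the strongest being ND-B22 of complex I with 81.8 (55.1 and 21.8), ATPsynbeta with 70.6 and ND-B18, also of complex I, with 48.4 (25.1 and 20.5). Mitochondrial ribosomal proteins gave 2 of 73 genes (2.74%), mRpL23 and mRpS5, the latter with 46.5 and a summit within 100 bp in replicate 1 only. The vacuolar ATPase and Rab group gave 1 of 69, Vha16-1 with 53.9 (24.4 and 34.6). Proteasome subunits gave 0 of 48 (a count of 0 allows 6.25% at most) and aminoacyl-tRNA synthetases 0 of 32 (9.38% at most).

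Among regulators, the insulator and promoter factors gave 2 of 18 genes (11.1%, 3.10 to 32.8): Chro and Trl, which encodes the GAGA factor, with 214 (85.0 and 122) 144 bp inside the gene. Clamp was not matched by that list because of its spelling and was singled out after its values were seen. Circadian clock genes gave 2 of 18, dco and Pdp1. The gene dco, the casein kinase Doubletime, had 55.1, with 11.4 in replicate 1 and no summit within 100 bp in replicate 2. Pdp1, a bZIP activator, had 43.7 (17.2 and 22.7). Eip75B, a nuclear receptor induced by ecdysone, was 1 of 26 in its group with 171 (94.5 and 73.6), 10 bp inside the gene. Dp, the partner of E2F, was 1 of 36 cell cycle genes with 106 (50.2 and 56.2). The gap gene hb was 1 of 43 patterning genes with 99.6 (40.1 and 56.7), and ph-p was 1 of 31 chromatin genes. With 1 or 2 genes a group these shares are imprecise. Of all protein-coding genes, 1.77% had a downstream peak and 8.48% an upstream one. Upstream shares of the groups in this paragraph ran from 9.30% to 38.9%.

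Signalling and structural groups also gave few genes each. For comparison, 1.77% of all protein-coding genes had a downstream peak and 8.48% an upstream one. Upstream shares of the groups in this paragraph ran from 10.3% to 28.0%. The Wnt, Notch, EGFR, JAK/STAT and Hippo group gave 3 of 43 genes (6.98%, 2.40 to 18.6). Mer, the merlin gene of the Hippo pathway, had 88.7, with no summit within 100 bp in replicate 1 and 47.3 in replicate 2. The others were mam, a coactivator of Notch, with 77.6 (38.6 and 14.1) and aop, an ETS repressor, with 58.0 (16.6 and 34.0). Insulin, TOR and AMPK signalling gave 2 of 25, Sik3 with 98.3 (38.7 and 58.7) and SNF4Agamma, the gamma subunit of AMPK, with 53.2 (21.8 and 29.8). Heat shock proteins and chaperones gave 2 of 20 genes, DnaJ-1 with 101 (46.3 and 55.6) and Hsc70-4. The peaks of Hsc70-4 had 54.7 (a summit within 100 bp in replicate 2 only, 40.5) and 44.4 (9.28 and 21.8). Neuronal genes gave 2 of 29, elav with 89.5 and nrv3, a sodium pump subunit, with 47.4 (24.7 and 22.7). Muscle genes gave 1 of 27 (Zasp66) and HMG-box genes 1 of 17 (HmgZ). RNA-binding and splicing factors gave 1 of 35, the helicase gene Rm62 with 60.5 and a summit within 100 bp in replicate 1 only.

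Spermatocyte and testis genes had none. The spermatocyte transcription regulators, kmg and Mi-2 among them, gave 0 of 15 genes (a count of 0 allows 20% at most), and testis differentiation genes gave 0 of 27 (11.1% at most). Actin and tubulin genes gave 0 of 17 (up to 17.6%) and chemosensory genes 0 of 230 (up to 1.30%). Lists of 15 or 27 genes cannot show a share near 1.77%.

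Base composition and promoter words were compared over the 201 bp around the summit, on both strands. Downstream summits had a mean GC content of 38.2% (SD 7.24, n = 257), against 35.0% (SD 7.06) at upstream peaks and 44.1% (SD 7.20) in 201 bp windows centred 101 bp downstream of all 19276 protein-coding TSSs. The TATA box word TATAAA was within 33.1% (27.6 to 39.0) of the downstream windows, 39.3% of upstream windows and 17.6% of the windows at all TSSs. The search set no position relative to the TSS. In 73 of the 85 downstream windows with the word, the match nearest the summit lay downstream of the TSS. The median over the 85 was 94 bp downstream, so the shares count the word and not placed TATA boxes. The AT-rich control word ATTATAAT was in 0.778%, 2.56% and 0.716%. The windows at all TSSs were centred at 101 bp only, whereas the summits had quartiles of 38 and 261 bp, so positions were not matched. The part of GC content and of position in these shares and in those below was not tested. The BEAF-32 word CGATA, which also lies inside the DRE word TATCGATA, was in 31.9% (26.5 to 37.8) of downstream windows, against 33% upstream and 27.2% at all TSSs. The E-box CAGCTG was in 13.6% (9.96 to 18.4), against 9.31% upstream and 11.1% at all TSSs.

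The pause button, initiator, DRE, GAGA and CA repeat words had a share nearer to that at all TSSs than to that at upstream peaks. The M1BP, E2F and Ohler motif 7 words did not. The pause button, searched as GCGGACG or GCGATCG or GCGGTCG or GCGAACG, or with T in place of the first G,, was in 12.5% (8.96 to 17.0) of downstream windows, 6.44% of upstream windows and 16.4% of windows at all TSSs. Within 50 bp of the summit its shares were 4.67% (2.69 to 7.98), 2.72% and 6.76%, with the downstream share about as far from one as from the other. The initiator, searched as TCAGTT and TCAGTC, was in 22.2% (17.5 to 27.6), 15.5% and 23.8%. In 51 of the 57 downstream windows with an initiator word, the match nearest the summit lay downstream of the TSS. The median over the 57 was 112 bp downstream. The DRE word, the site of the factor Dref, was in 1.95% (0.834 to 4.47) of downstream windows, 5.90% of upstream windows and 1.30% at all TSSs. The M1BP word GGTCACAC was in 1.95%, 2.48% and 2.85%, the GAGA word GAGAGAG in 2.33%, 4.58% and 2.30%, the CA repeat CACACACA in 4.67%, 2.25% and 4.59%, and the E2F words TTTCGCGC and TTTGGCGC in 3.50%, 2.02% and 1.97%. The words CAGCNCTA and CATCNCTA of Ohler motif 7 were in 6.61% (4.17 to 10.3), 8.46% and 4.50%. All 17 of its windows were in the 5′ UTR class (9.94% of 171), and 0 of the 75 intronic windows held it, which allows up to 4.0%. The pause button was in 15.8% (11.1 to 22.0) of 5′ UTR windows and 5.33% (2.09 to 12.9) of intronic windows, which lie further from the TSS. A match is a description of letters, and 15 words were searched.

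The X chromosome held 41 of the 257 peaks (16%, 12 to 20.9), against 18.5% of all peaks. Another IDR summit lay within 1000 bp of 75 downstream peaks (29.2%, 24.0 to 35.0), against 24.7% of all peaks.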

How the data were processed

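The authors deposited peak lists in narrowPeak format, 1 of optimal IDR peaks, 1 of 30000 regions for the pooled replicates and 1 of 30000 regions per replicate. Each list gives a signal value, whose scale is not stated, and −log10 of the q-value as deposited, with the offset of the summit from the region's start. Total reads are unknown, and so is the depth. The peak caller and the aligner were not given in the sources used here. Lists on build dm3 were not used, and 0 columns were without a sample or group.

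Coordinates are 1-based on dm6. Annotation was Ensembl release 115 on BDGP6 and sequence the Release 6 genome from RefSeq, and the lengths of 7 arms were checked against the peaks. A replicate lists a peak where it has a region with its summit within 100 bp. Shares carry 95% Wilson intervals and a count of 0 is read against 3 counts, which both cover counting error only. With 1 group of 2 replicates no test between groups was possible. Whether the replicates came from separate flies is given only by their biological replicate numbers.

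The members, the 24 gene lists (26 symbols not found in those given by symbol) and the motifs were chosen with earlier results of these data known. Named were the 25 strongest peaks, up to 3 of the strongest per list, the 3 strongest in coding exons, the 3 peaks nearest to each limit on either side and the 5 with the most unequal replicates. The 30-base runs were up to 10 of the strongest named peaks with a searched word.

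Scripts ran under Python 3.11.15 (matplotlib 3.10.9 for plots, scipy 1.17.1, numpy 2.4.6 and pandas 2.3.3 for values). Placement was tested on simulated data at isolated protein-coding TSSs: all 1000 planted summits were returned at their distance. Start sites close to another, which are common among these peaks, were not part of that test.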

Additional observations from a re-analysis of the deposited data

How the results depend on the processing

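Over 76 alternative values of the 8 main results, 44 moved by less than the interval or spread of the main value. The downstream share of 8.96% became 6.28% with a window of 200 bp, 14.3% with 1000 bp and 6.42% with summits from 50 bp on. In the same order the median distance of 101 bp became 64 bp, 313 bp and 168 bp, the intron share of 29.2% became 10%, 52.1% and 40.2%, and the 5′ UTR share of 66.5% became 86.1%, 43.6% and 54.3%, as such windows must. With the nearest TSS of any gene the 5′ UTR share was 59.0% and the share with another TSS 70.8%, which was 72.7% with 1000 bp. The median signal of 70.6 became 79.5 with 1 TSS per gene, 137 in the 1434 strongest peaks and 106 under a 5% false discovery rate limit. Each replicate alone gave a median signal of 38 to 41.1 and a median distance of 77.5 to 104 bp. The share listed in both replicates, 83.7%, was 95% in the 1434 strongest, 92.9% under the 5% limit, 61.5% and 95.3% with matches within 50 and 200 bp, and 90.3% with at least 50% of both intervals. The share downstream in both, 74.7%, was 80.3% with 1000 bp, 82.1% from 50 bp on, 85.8% in the 1434 strongest, 82.6% under the 5% limit, and 55.6% and 82.9% with matches within 50 and 200 bp. A window of 200 bp took both clock genes, ph-p, hb, Dp and Rm62 out of their lists, leaving 0, and 1 gene each from the mitochondrial ribosomal (mRpS5), heat shock (DnaJ-1), neuronal (elav), oxidative phosphorylation (UQCR-11) and Wnt to Hippo (mam) lists.

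No paired analysis was possible because there is 1 group. The side of the TSS is uncertain for summits within 50 bp of it, given the 25 bp median gap between replicates. Without read totals, depth could not be judged.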
